A study of Homo sapiens with 6 samples.

Results

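The regions described here are the stretches of the SK-N-BE(2) genome that carried peaks of HAND2 in both replicates, of MEIS2 in replicate 1 and of TCF4, but no peak of MEIS2 in replicate 2. Peaks of all 5 lists on chromosomes 1 to 22 and X were pooled, and those that shared at least 1 bp were merged. Of 61457 merged regions, 3941 (6.41%) met the rule and are called members. Members were chosen by these peak calls, so the presence of these peaks, and the absence of MEIS2 rep2, is the choice and not a result.

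The study profiled 3 transcription factors by CUT&Tag, in which an antibody guides a transposase that cuts and tags DNA beside the bound protein. SK-N-BE(2) is an established human neuroblastoma line with amplified MYCN, and all libraries came from this 1 line, with no treatment named. HAND2 (antibody ab200040) and MEIS2 (sc-515470) had 2 libraries each, TCF4 (ab217668) had 1, and an IgG library (ab172730) was the control, for which no peak list was used here. Nothing in the labels ties replicates to separate cultures, and TCF4 has no replicate check. The peak identifiers of MEIS2 rep2 carry the word Flag, although its labels name the same antibody as MEIS2 rep1.

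HAND2 acts in the sympathetic and cardiac lineages and belongs to the basic helix-loop-helix (bHLH) family, whose members bind E-box sequences as dimers. TCF4 is an E protein, the class of bHLH factor with which HAND2 pairs. MEIS2 is a homeodomain factor of the TALE class, which often binds beside other homeodomain or bHLH proteins. In neuroblastoma, HAND2, GATA3 and related factors form the adrenergic regulatory circuit, in which the factors occupy each other's genes and those for catecholamine synthesis.

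The upstream sequences of 4 gene starts wholly inside members show what DNA lies under such regions. They belong to RD3, a retinal guanylate cyclase regulator, HES1, a bHLH repressor of the Notch pathway, TLX2, a homeobox factor of the autonomic nervous system, and ORC6, a subunit of the replication origin complex. They are the best placed by fold rank among the named members whose annotated start is also an end of the gene. Each line gives the 250 bases before the start, read 5′ to 3′ on the gene's strand, from RefSeq on GRCh38.p14. Capitals mark E-boxes (CANNTG on either strand) and the TALE letters TGACAG (either strand).
RD3: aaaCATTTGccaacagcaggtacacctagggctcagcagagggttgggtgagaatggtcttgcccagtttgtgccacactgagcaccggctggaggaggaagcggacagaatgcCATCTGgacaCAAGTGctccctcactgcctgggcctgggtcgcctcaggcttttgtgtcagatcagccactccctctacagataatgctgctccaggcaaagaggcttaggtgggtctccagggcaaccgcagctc
HES1: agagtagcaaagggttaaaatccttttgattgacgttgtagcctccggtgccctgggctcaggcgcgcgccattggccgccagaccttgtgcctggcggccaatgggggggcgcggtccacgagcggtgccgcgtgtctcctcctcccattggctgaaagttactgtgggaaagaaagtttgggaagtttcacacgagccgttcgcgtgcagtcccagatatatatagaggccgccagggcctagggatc
TLX2: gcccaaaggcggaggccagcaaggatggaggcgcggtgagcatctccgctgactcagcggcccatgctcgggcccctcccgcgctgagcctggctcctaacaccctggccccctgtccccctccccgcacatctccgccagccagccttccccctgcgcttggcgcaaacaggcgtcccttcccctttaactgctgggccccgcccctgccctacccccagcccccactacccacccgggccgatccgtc
ORC6: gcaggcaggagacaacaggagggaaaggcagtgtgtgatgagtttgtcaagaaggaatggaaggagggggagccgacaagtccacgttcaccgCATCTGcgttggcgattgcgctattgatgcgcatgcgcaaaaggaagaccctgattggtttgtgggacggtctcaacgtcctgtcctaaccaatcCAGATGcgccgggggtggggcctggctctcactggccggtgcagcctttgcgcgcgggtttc
The RD3 stretch lies at chr1:211492163-211492412 on the minus strand and holds 3 E-boxes. The HES1 stretch at chr3:194135898-194136147 and the TLX2 stretch at chr2:74514200-74514449, both on the plus strand, hold none. The ORC6 stretch at chr16:46689409-46689658 on the plus strand holds 2 E-boxes, both of the form CATCTG or its reverse complement CAGATG.

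The peaks sat at different distances from these starts. At ORC6 the summits of HAND2 rep1, HAND2 rep2 and TCF4 all fell 270 bp upstream, at 1 base, and that of MEIS2 rep1 fell 272 bp upstream, just outside the printed stretch. At RD3 they fell 313, 225, 221 and 172 bp upstream for HAND2 rep1, HAND2 rep2, MEIS2 rep1 and TCF4. At HES1 and TLX2, where the stretch holds no E-box, all 4 summits lay more than 1 kb upstream: 1205 to 1292 bp at HES1 and 1057 to 1270 bp at TLX2. A match of letters is no evidence of a bound site.

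Over all members, 1306 annotated starts of 1001 genes had their 300-base window (250 before the start and 50 after) wholly inside a member. An E-box was found in the 250 bases before 48.6% of these starts (exact binomial 95% interval 45.9 to 51.4%), against 58.1% of all 22011 starts. The interval treats starts as independent, although several can belong to 1 gene. In HAND2 and TCF4 regions with no MEIS2 peak the share was 51.4% of 1753 starts. In regions of all 5 libraries it was 57.6% of 139. In HAND2 and MEIS2 rep1 regions with no TCF4 or MEIS2 rep2 peak it was 66.7% of 21. The stretches were chosen for lying inside a region, not under a summit. CACCTG was held by 10.7% of the members' starts and 17.1% of all, CATCTG by 7.96% and 10.2%, and CAGCTG by 13.7% of both. CACGTG was held by 9.11% and 7.35%, and TGACAG by 11.2% and 12.2%. The GATA letters AGATAA were held by 3.52% and 7.10%, and TGATAA by 1.84% and 4.95%. In HAND2 and TCF4 regions with no MEIS2 peak, AGATAA was held by 2.45% and TGATAA by 1.71%. In regions of all 5 libraries the shares were 5.04% and 4.32%. Among the 21 starts of HAND2 and MEIS2 rep1 regions they were 9.52% and 4.76%. E-box and GATA shares below those of all starts were thus not particular to members. The composite motif of PBX with MEIS was held by 6 of the members' starts and by 37 of all, and the paired homeodomain motif by 0 and 49. All motifs were read on both strands, and the narrower E-boxes are also counted under CANNTG. The median GC content of the members' stretches was 66.8%, against 62.0% for all starts, and its part in these shares was not tested.

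Members took up a larger share of the MEIS2 rep1 list than of any other list. They held 44.4% of its 9595 peaks, against 14.6% of 30410 HAND2 rep1 peaks, 13.4% of 33484 HAND2 rep2 peaks and 13.9% of 30704 TCF4 peaks. The order was different among the strongest peaks. Members held 65.2% of the 500 TCF4 peaks with the highest fold, against 24.2% for MEIS2 rep1, 22.2% for HAND2 rep2 and 14.8% for HAND2 rep1. Of the top 100 peaks they held 69 for TCF4, 14 for MEIS2 rep1, 21 for HAND2 rep2 and 10 for HAND2 rep1. The MEIS2 rep1 list is the shortest, and these shares follow from the rule and are given as description.

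The fold of a peak is the authors' peak caller's ratio of the fragment pile-up at the summit to the local background, and a region's fold is that of its strongest peak. Folds rank regions within a library and are not compared between antibodies. Members had a median fold of 5.76 in HAND2 rep1 (quartiles 3.64 and 10.1), 6.42 in HAND2 rep2 (4.05 and 10.7), 5.37 in MEIS2 rep1 (4.03 and 7.32) and 10.1 in TCF4 (6.28 and 16.9). Regions with peaks of all 5 libraries had medians of 14.9, 14.1, 9.25 and 8.31 in the same order. HAND2 and TCF4 regions with no MEIS2 peak had medians of 3.98 in HAND2 rep1, 4.54 in HAND2 rep2 and 6.28 in TCF4. HAND2 and MEIS2 rep1 regions with no TCF4 or MEIS2 rep2 peak had 8.61 in HAND2 rep1, 7.65 in HAND2 rep2 and 6.16 in MEIS2 rep1. Members were thus lower than the 5-library regions in HAND2 and MEIS2 rep1 and higher in TCF4. They were higher than the regions without MEIS2, and lower than those without TCF4, in each library that both share. Their median width was 1919 bp, against 2108 bp for the 5-library regions and 1327 bp for HAND2 and TCF4 regions with no MEIS2 peak.

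**Figure D1:**
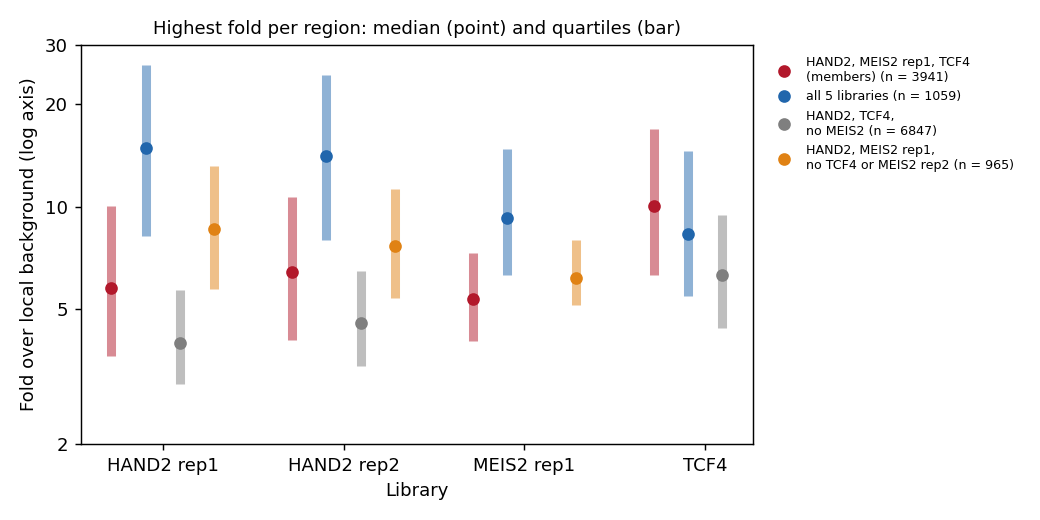
Highest fold over local background per region (log axis) in each library of SK-N-BE(2) cells, as the median (point) and quartiles (bar), for members and 3 other classes of merged regions. Members have the highest TCF4 median (10.1) and sit below the regions of all 5 libraries in the other 3 libraries.

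The HAND2 replicates ranked the members almost alike, and TCF4 ranked them differently. Across the 3941 members, log2 folds of HAND2 rep1 and rep2 had a Pearson r of 0.93, and their difference, rep2 minus rep1, had a median of 0.17 and an SD of 0.36. The r was 0.48 for HAND2 rep1 with MEIS2 rep1 and 0.44 for HAND2 rep2 with MEIS2 rep1. With TCF4 it was 0.30 for HAND2 rep1, 0.37 for HAND2 rep2 and 0.17 for MEIS2 rep1. These are values across regions of 1 cell line that share a local background estimate, and regions are not replicates. Counted by quartiles of fold, 207 members were in the top quartile of all 4 libraries and 1963 in the top quartile of none.

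The 4 libraries placed their summits close together in most members. The summits of HAND2 rep1 and rep2 were a median of 44 bp apart (within 100 bp in 71.3% of members), those of HAND2 rep2 and TCF4 76 bp (57.1%), and those of HAND2 rep2 and MEIS2 rep1 89 bp (53.4%). MEIS2 rep1 and TCF4 were furthest apart, with a median of 113 bp (46.5%). The distance between the outermost of the 4 strongest summits had a median of 214 bp (quartiles 99 and 510). It was at most 100 bp in 1008 members (25.6%) and over 1000 bp in 563 (14.3%). Members with 1 peak of each library numbered 3041 and had a median spread of 182 bp, and the 900 with more than 1 peak of a library had 797 bp. In 3823 members (97.0%) at least 1 base lay under peaks of all 4 libraries, and 118 were joined only by chains of overlap.

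**Figure D2:**
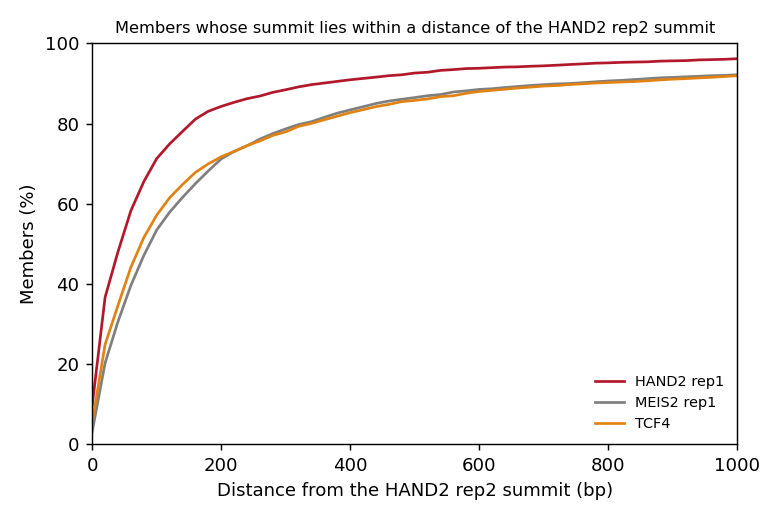
Share of the 3941 members (%) in which the strongest summit of HAND2 rep1, MEIS2 rep1 or TCF4 lies within a given distance (bp) of the HAND2 rep2 summit. The HAND2 rep1 curve is the highest, and 57.1% of TCF4 summits and 53.4% of MEIS2 rep1 summits lie within 100 bp.

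Most members lay away from the ends of genes. In 917 members (23.3%, exact 95% interval 22 to 24.6%) the HAND2 rep2 summit lay at most 1 kb from where a protein-coding gene starts or ends. It lay inside a gene but away from its ends in 1842 (46.7%) and outside genes in 1182 (29.99%). In 2186 members (55.5%) it was over 10 kb from any end. The share at ends was 23.2% by the HAND2 rep1 summit, 24.1% by MEIS2 rep1 and 24.3% by TCF4. By annotated gene starts alone, inner starts included and chromosome 8 left out, it was 22.1%.

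Members were at gene ends more often than the 3 classes they were set beside, but for 1 of them the direction depended on the peaks kept. The share was 8.22% in the 5-library regions, a difference of 15.1 percentage points (Newcombe 95% interval 12.8 to 17.1). In HAND2 and MEIS2 rep1 regions with no TCF4 or MEIS2 rep2 peak it was 3.01%, a difference of 20.3 points (18.4 to 21.9). In HAND2 and TCF4 regions with no MEIS2 peak it was 21.2%, a difference of 2.05 points (0.42 to 3.70). That last difference turned negative, at -0.17 points (-1.85 to 1.56), when only peaks with a −log10 q of 5 or more were kept, and it was -1.91 points with the 9000 best peaks of each list. The intervals cover counting error over regions, not the spread between cultures.

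**Figure D3:**
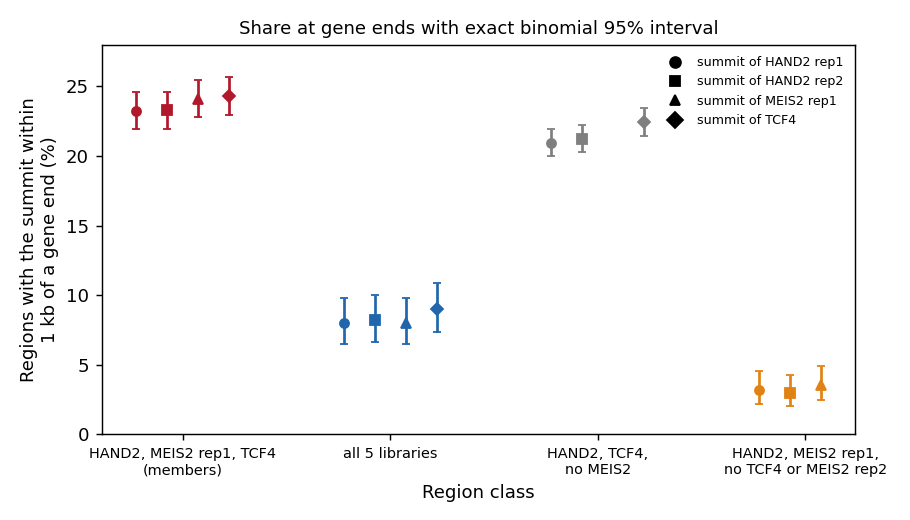
Share of regions (%) whose summit lies at most 1 kb from either end of a coding gene, by region class and by the library that gives the summit, with exact binomial 95% intervals. Members (23.2 to 24.3%) sit far above the regions of all 5 libraries and close to HAND2 and TCF4 regions without MEIS2.

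Within the members, those at gene ends had lower folds in every library. The 917 at ends had a median fold of 3.38 in HAND2 rep1, 3.71 in HAND2 rep2, 4.42 in MEIS2 rep1 and 8.09 in TCF4. Elsewhere the medians were 6.98, 7.72, 5.69 and 11.0 in the same order. The pile-up itself was not lower throughout: its median was 186 fragments at ends and 150.5 elsewhere in TCF4, and 32 and 25 in MEIS2 rep1, but 92 and 108 in HAND2 rep2. The local background in HAND2 rep2 was 23.3 fragments at ends and 13.0 elsewhere.

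From the lowest to the highest quartile of members by HAND2 rep2 fold, the share at gene ends was 54.6%, 25.6%, 10.2% and 2.74%. By HAND2 rep1 it was 53.2, 26.3, 10.6 and 2.94%. The slope was shallower by MEIS2 rep1, from 38.5% in the lowest quartile to 14.1% in the highest, and by TCF4, from 31.5 to 11.0%. The members with contrasting folds gave the same picture. Of 217 members in the top quartile of TCF4 and below the median of both HAND2 replicates, 28.6% were at a gene end, against 1.69% of 296 in the top quartile of both HAND2 replicates and below the median of TCF4.

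Among regions of like HAND2 fold, the difference from the 5-library regions was estimated below the pooled 15.1 points, but imprecisely in the lowest quartile. With the classes cut at the members' quartile bounds of HAND2 rep2 fold, the share at ends in the lowest quartile was 54.6% in members and 49.0% in 5-library regions, a difference of 5.58 points (-8.32 to 19.3). In the next quartile groups it was 25.6% in members and 25.9% in 5-library regions, then 10.2% and 9.55%, then 2.74% and 1.33%, and every interval of these differences included 0. Only 49 of the 1059 5-library regions fell in the lowest quartile, so small differences there were not detectable. The interval there also still held the pooled difference. Against HAND2 and TCF4 regions with no MEIS2 peak the gap was wider than in the pooled comparison in the 3 lower groups: 54.6% of members and 35.5% of those regions in the lowest quartile (difference 19.1 points, 15.5 to 22.7), 25.6% and 15.7% in the second (9.85 points, 6.82 to 13.0) and 10.2% and 7.0% in the third (3.15 points, 0.82 to 5.56). In the highest quartile the shares were 2.74% of members and 4.32% of those regions, with an interval that included 0 (-3.93 to 0.33 points). Against HAND2 and MEIS2 rep1 regions with no TCF4 or MEIS2 rep2 peak, the differences were 42.6, 22.6 and 8.09 points in the 3 lower groups. In the highest it was 1.63 points (-0.65 to 3.05).

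**Figure D4:**
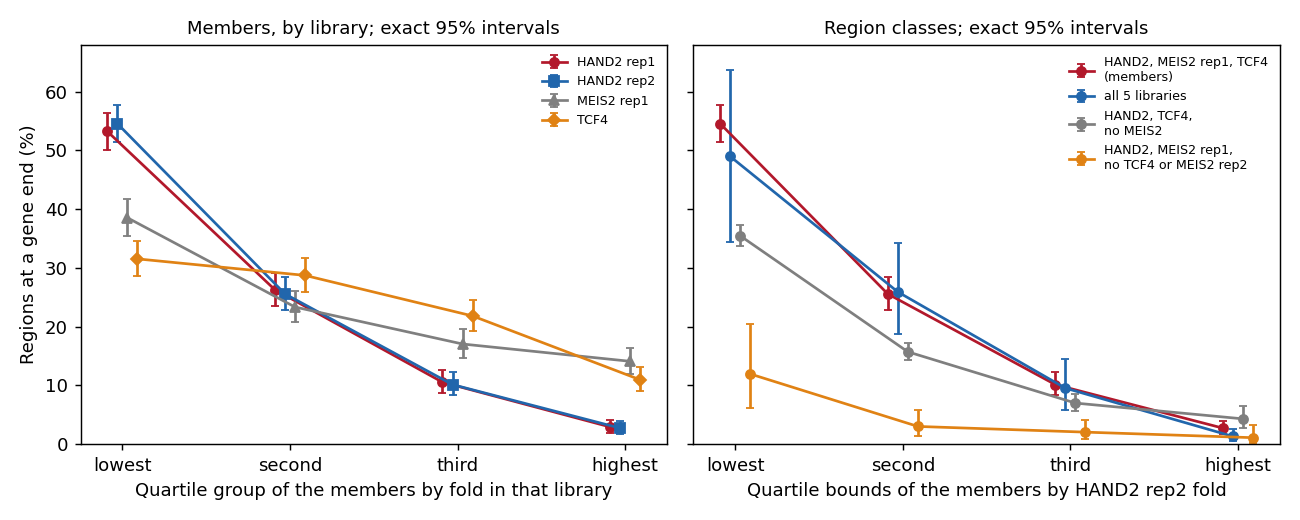
Share of regions (%) at a gene end, with exact binomial 95% intervals. The left panel splits the members into quartile groups by their fold in each library, and the right panel splits each class at the members' quartile bounds of HAND2 rep2 fold. Members and regions of all 5 libraries have overlapping intervals in each quartile (54.6 and 49.0% in the lowest, 2.74 and 1.33% in the highest). The lowest holds only 49 regions of all 5 libraries.

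Around gene starts a larger share of the HAND2 summits of members than of the TCF4 summits lay upstream. Among members within 1 kb of a start, the median position was 126 bp upstream for HAND2 rep1 (823 members), 121 bp for HAND2 rep2 (831), 47 bp for MEIS2 rep1 (867) and 13 bp for TCF4 (878). The summit fell downstream of the start in 41.3% of these members for HAND2 rep1, 42.4% for HAND2 rep2, 45.8% for MEIS2 rep1 and 49.3% for TCF4. The medians do not mark a typical position, because summits gathered on both sides of the start. For HAND2 rep1, 17.7% lay 200 to 300 bp upstream, 6.44% in the last 100 bp before the start and 12.8% 100 to 200 bp downstream. For TCF4 these shares were 13.4, 6.72 and 16.6%. The same order of HAND2 and TCF4 held in regions without MEIS2, where the medians were 58 bp upstream for HAND2 rep1, 14 bp upstream for HAND2 rep2 and 44 bp downstream for TCF4.

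The strongest members, ranked by the worst of their 4 fold ranks, lay mostly away from gene ends. The first, at chr20:48396726-48399142, had folds of 35.2 and 36.9 in HAND2 rep1 and rep2, 20.3 in MEIS2 rep1 and 53.7 in TCF4. Its nearest protein-coding gene was PREX1, a Rac exchange factor, 226908 bp away, and 3 of its 4 summits lay between bases 48397344 and 48397346, with that of HAND2 rep1 47 bp away. A second member at chr20:48618622-48622142, 4582 bp from PREX1, had folds of 45.2, 49.2, 15.4 and 58.7 in the same order. The PREX1 surroundings thus held 2 of the 12 best members.

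A member inside the annotated span of MRPL23, a mitochondrial ribosomal protein gene, at chr11:1977985-1981180, had the highest TCF4 fold of all, 200 (counting 95% interval 192 to 207) from a pile-up of 2860 fragments. Its folds were 28.3 in HAND2 rep1, 34.9 in HAND2 rep2 and 19.4 in MEIS2 rep1. A member inside MSI2, an RNA-binding regulator of progenitor cells, had folds of 28.1, 29.9, 19.4 and 49.2 in HAND2 rep1, HAND2 rep2, MEIS2 rep1 and TCF4. One inside PLA2G6, a phospholipase gene, had 27.5, 32.1, 23.1 and 46.5 in that order. CABLES1, a cyclin-dependent kinase adaptor, held one with 22.04, 25.1, 18.5 and 91.0, the second highest TCF4 fold of the 12. Others of the 12 were nearest to SPDYE21, FAM170B, ESRRB, IGFBP4 and TRPM1, with TCF4 folds of 54.6 to 71.5, and of these the one at IGFBP4 reached a gene end.

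The extremes of HAND2 and MEIS2 were other regions. The highest HAND2 folds stood at chr8:139039187-139040680, 126084 bp from the collagen gene COL22A1: 132 in rep1 and 88.4 in rep2, with 29.6 in MEIS2 rep1 and 15.8 in TCF4. By fold among the members it ranked 1 in both HAND2 replicates, 9 in MEIS2 rep1 and 1085 in TCF4. The TCF4 pile-up there was 40 fragments, against 339 and 252 for HAND2 rep1 and rep2. The highest MEIS2 rep1 fold, 44.8, stood inside JDP2, an AP-1 repressor gene. The HAND2 folds there were 30.8 in rep1 and 10.2 in rep2, and TCF4 had 8.84. These folds do not come from 1 site. The summits of HAND2 rep1 and MEIS2 rep1 lay at bases 75434479 and 75434473. Those of HAND2 rep2 and TCF4 lay at 75435068 and 75435055. The HAND2 pile-ups were close, at 129 fragments in rep1 and 123 in rep2, over local backgrounds of 3.22 and 11.2.

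Among members that reached a gene end, the best was the one at IGFBP4, whose product binds insulin-like growth factors, at chr17:40456303-40464667, with folds of 22.7, 23.2, 18.0 and 57.5 in HAND2 rep1, HAND2 rep2, MEIS2 rep1 and TCF4. The IGFBP4 folds do not come from 1 site. The MEIS2 rep1 summit lay at base 40460865, and those of HAND2 rep1, HAND2 rep2 and TCF4 at 40458457, 40458500 and 40458496. The next member by rank, at KCNH2, a potassium channel gene, had 18.1, 19.4, 11.9 and 33.6. There all 4 libraries put the summit on the same base, 6322 bp from the nearest end of the gene and 2507 bp downstream of an annotated inner start. At LARS2, which charges mitochondrial leucine tRNA, the TCF4 fold was 145, rank 3 of the members, and the folds of 18.0 in HAND2 rep1, 27.1 in HAND2 rep2 and 8.04 in MEIS2 rep1 ranked 294, 127 and 802. The MEIS2 rep1 pile-up at LARS2 was 15 fragments. At CCDC102A, a coiled-coil protein gene, HAND2 stood out instead, with 41.8 in rep1 (rank 34) and 48.5 in rep2 (rank 21), beside 8.20 in MEIS2 rep1 (rank 755) and 27.2 in TCF4 (rank 398). The others by this ranking were at DUOX1 with SHF, SAMD11 with NOC2L, C11orf96, RAD9A with PPP1CA, RASL11B, DNAJB8, TMEM204 and RD3, with TCF4 folds of 23.2 to 78.0.

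Some of these regions are long chains of peaks. The widest were 14221 bp inside SCUBE1, a secreted EGF-domain protein gene, 14200 bp at an end of GSE1, a chromatin-associated protein gene, and 13838 bp at SSBP4 and ISYNA1 together. In the last, the 4 strongest summits were spread over 9634 bp, and the folds were 4.34 in HAND2 rep1, 4.02 in HAND2 rep2, 4.36 in MEIS2 rep1 and 8.99 in TCF4.

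Members also gathered along single genes. GSE1 had 30 members inside it or within 50 kb, 27 of them inside its 506689 bp, with folds up to 29.997 in HAND2 rep1, 34.6 in HAND2 rep2, 13.5 in MEIS2 rep1 and 59.7 in TCF4. ZMIZ1, a transcriptional coactivator gene, had 19, MSI2 16, CAMTA1, a calmodulin-binding transcription activator gene, 14, and TSPAN18, a tetraspanin gene, 13. CCDC33 and SEPTIN9 had 12 each, and LOC124905135 had 11, as did MACROD1 and PCBP3. Per 100 kb of gene, LOC124905135 held 10.1 members, CCDC33 6.74, ZMIZ1 6.46 and GSE1 5.33, against 1.32 in CAMTA1. The median gap from a member to the nearest other member was 39345 bp, and 27.5% had another within 10 kb.

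The members beside LOC124905135 on chromosome 22 include the locus of let-7a-3 and let-7b. A search for RefSeq miRNA hairpins, added after member values had been seen, found 24 of 1558 hairpins inside 22 members. No count for other region classes or for an equal length of genome is given beside it. The count is therefore not read as many or few. The sequences below are a selection from the 36 mature sequences of these hairpins. Capitals mark the seed, bases 2 to 8, in the mature sequences from RefSeq on GRCh38.p14.
hsa-let-7a-5p: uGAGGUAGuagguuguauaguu
hsa-let-7b-5p: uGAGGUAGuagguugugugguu
hsa-miR-375-3p: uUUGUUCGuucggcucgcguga
hsa-miR-346: uGUCUGCCcgcaugccugccucu
The let-7 family restrains growth programmes in many tissues, and both its copies here share the seed GAGGUAG and lie in 1 member, chr22:46111447-46118351. That member had folds of 4.97, 6.51, 4.69 and 18.6 in HAND2 rep1, HAND2 rep2, MEIS2 rep1 and TCF4. The summits of HAND2 rep2 and TCF4 lay 3082 bp from let-7b, that of HAND2 rep1 3038 bp and that of MEIS2 rep1 437 bp. The member with miR-375, known from endocrine cells, had 5.75, 7.18, 7.77 and 33.3, and its HAND2 rep2 summit lay 4032 bp from the hairpin. The member with miR-346, inside GRID1, had 18.5, 17.6, 7.79 and 17.5, with the TCF4 summit 339 bp away. The summits of HAND2 rep1, HAND2 rep2 and MEIS2 rep1 lay 1195, 1292 and 1181 bp from that hairpin. A peak over a hairpin shows position only.

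A member reached the 1 kb around an end of 1474 of 19970 protein-coding genes (7.38%), and 4977 (24.9%) had a member's summit inside or within 50 kb. These shares are the background for the gene lists. The members touched the ends of 0 genes in 2738 cases, of 1 gene in 927, and 1 member touched the ends of 23 overlapping or clustered gene entries.

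The list that stood highest was that of the adrenergic regulators, the transcription factors of the noradrenergic neuroblastoma state. A member was at an end of 15 of its 28 genes (53.6%), and 22 of 28 had one within 50 kb. This counts any overlap of the member with the 1 kb window, not the position of its summit. The HAND2 rep2 summit of the member described lay 1057 to 4370 bp from the nearest end at HAND2, GATA3, TBX2, TLX2, INSM2, ZNF536 and MEIS1. At the others of the 15 it lay at most 376 bp away. PHOX2A, GATA2 and TBX2 each had 2 members at an end, and only 1 is described for each. For HAND2 and TCF4 regions with no MEIS2 peak, which reached the ends of more genes in all (2138), the count was 5 of 28. For 5-library regions (157 genes in all) it was 4 of 28. No test was made of these lists, because they were chosen with results of these libraries known.

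The genes of the factors themselves were among the 15. At HAND2 the member lay at chr4:173521165-173525579 and had folds of 2.76 in HAND2 rep1, 3.53 in HAND2 rep2, 8.15 in MEIS2 rep1 and 23.8 in TCF4, the TCF4 value from 901 fragments. At MEIS2, chr15:37099935-37102627, the folds were 4.88, 6.44, 17.8 and 9.85 in the same order. By fold among the 3941 members, the MEIS2 gene ranked 66 in MEIS2 rep1 and 2317, 1969 and 2019 in HAND2 rep1, HAND2 rep2 and TCF4. The member at the HAND2 gene ranked 3491 and 3254 in HAND2 rep1 and rep2, 764 in MEIS2 rep1 and 540 in TCF4. The HAND2 peaks of this 1 member were thus among the weaker ones, and its HAND2 rep2 summit lay 3962 bp from the nearest gene end. The gene had 3 members inside it or within 50 kb, and HAND2 peaks there in other region classes were not examined. No member reached an end of TCF4 itself, although 2 lay inside it or within 50 kb.

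The other adrenergic genes fell into strong and weak members. At PHOX2A, a sympathetic homeodomain factor, the folds were 9.44 in HAND2 rep1, 13.5 in HAND2 rep2, 18.1 in MEIS2 rep1 (rank 61) and 16.7 in TCF4. At TLX2 they were 13.9, 10.8, 7.82 and 50.5 in that order, and TCF4 placed it at rank 75. At HAND1, the bHLH paralogue of HAND2, they were 10.1, 10.7, 3.53 and 12.2. GATA2 and GATA3, zinc finger factors of the sympathetic lineage, had lower HAND2 folds than these 3: 6.02, 5.40, 4.76 and 11.4 at GATA2 in the same order of libraries, and 4.02, 4.28, 7.11 and 6.59 at GATA3. SIX3, a homeobox factor, ranked 170 in MEIS2 rep1 (fold 13.9) but 2189, 2682 and 3351 in HAND2 rep1, HAND2 rep2 and TCF4 (5.22, 4.65 and 5.14).

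At TBX2, a T-box repressor, the folds were 6.31, 7.76, 7.47 and 18.9 in HAND2 rep1, HAND2 rep2, MEIS2 rep1 and TCF4. ZNF536, a zinc finger gene of neurons, had 5.52, 7.84, 7.62 and 9.58, and MEIS1, the paralogue of MEIS2, 6.15, 7.10, 6.70 and 13.0. INSM2, SOX11 and TCF12, an insulinoma-associated factor, a SOX factor and an E protein, had HAND2 folds of 2.04 to 4.45 in both replicates and TCF4 folds of 4.43 to 6.82. These HAND2 folds lie under the members' lower quartiles, apart from that of TCF12 in HAND2 rep1.

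MYCN, the amplified gene of this line, was also on the list, with low folds beside very large pile-ups. The member at chr2:15938881-15944074 had pile-ups of 2048 fragments in HAND2 rep1, 4341 in HAND2 rep2, 1928 in MEIS2 rep1 and 8043 in TCF4, but folds of 3.0, 1.89, 2.94 and 4.13. The member's strongest summits were spread over 3321 bp, so the folds do not come from 1 site. Its local background in HAND2 rep1 was 681 fragments. In HAND2 rep2 it was 2294 fragments, against a median of 14.9 over all members. Of the 8 members with a HAND2 rep2 background over 10 times that median, 7 were on chromosome 2, and 6 lay within 1 Mb of MYCN. Copy number and binding cannot be told apart from the pile-up there.

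Catecholamine genes were reached less widely, at 4 of 20 ends (20%) and 8 of 20 within 50 kb, and HAND2 and TCF4 regions with no MEIS2 peak reached 7 of 20 ends. At DBH, which makes noradrenaline from dopamine, the folds were 13.3 in HAND2 rep1, 14.5 in HAND2 rep2, 4.65 in MEIS2 rep1 and 34.0 in TCF4. At CYB561, the electron carrier of the same vesicles, they were 16.6, 13.9, 6.32 and 40.8. At TH, the rate-limiting enzyme of catecholamine synthesis, they were 4.71, 5.78, 5.36 and 11.2, in a region that also takes in INS. The TH folds do not come from 1 site. The summits of both HAND2 replicates and TCF4 lay 1095 bp from the miR-4686 hairpin in this region, and that of MEIS2 rep1 lay 9002 bp from it. At SCG5, a secretory granule chaperone, they were 5.35, 5.50, 5.75 and 6.34. DBH and CYB561 were above the members' upper quartiles in both HAND2 replicates and TCF4, and TH and SCG5 lay between the quartiles in all 4 libraries.

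Of the TALE homeobox genes, 5 of 18 (27.8%) had a member at an end: MEIS1, MEIS2, PBX3, TGIF2 and IRX5. At PBX3, a partner of MEIS proteins, the folds were 4.14, 4.93, 6.75 and 48.5 in HAND2 rep1, HAND2 rep2, MEIS2 rep1 and TCF4, the TCF4 value from 1795 fragments. TGIF2, a TALE repressor, had 6.09, 7.23, 4.81 and 16.0, and IRX5, an Iroquois factor, 5.10, 6.94, 4.05 and 8.23. PBX3 ranked 89 of the members in TCF4 but 2675 and 2559 in HAND2 rep1 and rep2.

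Genes of neuronal differentiation had a member at 10 of 28 ends (35.7%) and 16 of 28 within 50 kb. CNTFR, the ciliary neurotrophic factor receptor, had 12.6, 15.4, 7.14 and 26.2 in HAND2 rep1, HAND2 rep2, MEIS2 rep1 and TCF4. PRPH, the peripheral neuron intermediate filament, had 5.48, 5.99, 4.45 and 9.39, and SNAP25, a synaptic fusion protein, 4.30, 3.80, 9.70 and 15.2. TUBB3, the neuronal tubulin, had 3.60, 3.65, 4.43 and 15.9. Apart from CNTFR these HAND2 folds lay below the members' medians.

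The bHLH and ID list had 8 of 32 ends reached (25%) and 17 of 32 genes with a member within 50 kb. HES1 had 10.5 in HAND2 rep1, 11.6 in HAND2 rep2, 8.34 in MEIS2 rep1 and 38.8 in TCF4, and ID2, an inhibitor of E proteins, had 5.60, 6.14, 5.13 and 12.9. Notch genes had 4 of 24 ends reached (16.7%) but 16 of 24 within 50 kb, and MAML3, a Notch coactivator, had 7 members within 50 kb. HES1 and MAML3 each had 2 members at an end, and only 1 is described for each. The one described at MAML3 had folds of 3.90, 4.94, 8.34 and 13.3 in HAND2 rep1, HAND2 rep2, MEIS2 rep1 and TCF4.

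Signalling and cell-cycle lists lay below the adrenergic and neuronal lists. The BMP and TGF-beta list was near the background, with 9.68% against 7.38% at ends and 25.8% against 24.9% within 50 kb. BMP and TGF-beta genes had 3 of 31 ends reached (9.68%), with folds at the receptor BMPR1B of 5.28, 6.07, 9.43 and 19.1 in HAND2 rep1, HAND2 rep2, MEIS2 rep1 and TCF4. Cell cycle and replication genes had 7 of 34 (20.6%). ORC6 had 7.74, 7.67, 7.60 and 11.5, and CCND1, cyclin D1, 4.87, 6.57, 9.54 and 31.9 at 1 of its 2 members at an end. Axon guidance genes had 7 of 33 (21.2%), among them the semaphorin co-receptor NRP1 with 7.74, 11.2, 4.50 and 7.69. Retinoid genes had 3 of 18 (16.7%), including the retinol transporter gene STRA6 with 14.4, 19.1, 5.92 and 6.75. HAND2 and TCF4 regions with no MEIS2 peak reached 8 BMP and TGF-beta, 6 cell cycle, 5 axon guidance and 3 retinoid genes.

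Genes of the mesenchymal state had 3 of 30 ends reached (10%), at SNAI2, FOSL2 and TWIST1. SNAI2, a zinc finger factor of migrating crest cells, had 8.66, 9.49, 5.88 and 29.0 in HAND2 rep1, HAND2 rep2, MEIS2 rep1 and TCF4. FOSL2, an AP-1 factor, had 3.41, 4.60, 6.32 and 9.94, and TWIST1, a bHLH factor, 3.08, 2.77, 4.63 and 3.70. The neural crest list had 1 of 20 (5%), again at SNAI2.

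Lists for other tissues were set beside those of the labelled cell type, in the absence of expression values. Liver genes had 0 of 20 ends reached, blood cell genes 0 of 21 and skeletal muscle genes 1 of 21, at MB, the myoglobin gene. At a background of 7.38%, lists of this size are too short for such counts to tell them from all genes. Within 50 kb the counts were 4 of 20, 3 of 21 and 6 of 21, near or below the 24.9% of all genes except in muscle (28.6%). The adrenergic and catecholamine lists, which stand for the labelled cells, were above both backgrounds, although HAND2 and TCF4 regions with no MEIS2 peak reached more catecholamine genes than members did. The neural crest list, at 1 of 20 ends (5%), was below the background at ends.

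**Figure D5:**
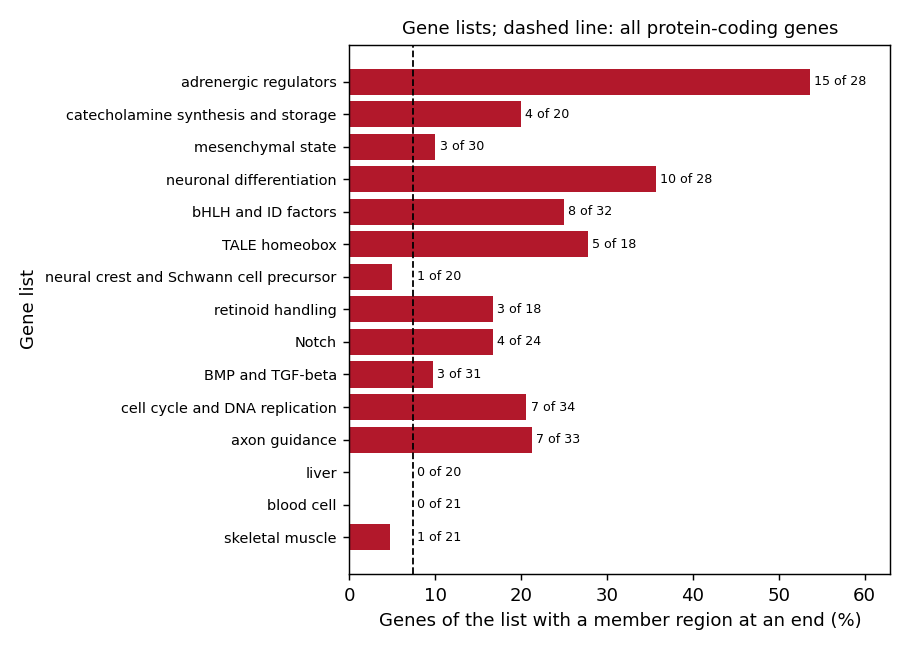
Share of the genes of each list (%) with a member within 1 kb of an end, with the count beside each bar and the 7.38% of all protein-coding genes as a dashed line. Adrenergic regulators stand highest (15 of 28), and liver and blood cell genes have none.

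Members were unevenly spread over chromosomes. Per 100 protein-coding genes they numbered 34.4 on chromosome 22, 29.7 on 10 and 27.6 on 17, against 6.49 on X, 7.10 on 13, 10.4 on 4 and 10.7 on 18. As a share of all regions with HAND2 peaks of both replicates, members were most frequent on chromosomes 17 (29.2%) and 19 (29.1%) and least on 13 (8.57%). Chromosome 22 stood at 17.6% on that second measure, so its high density went with many HAND2 regions of any class. Gains and losses of chromosome arms in this line were not measured here.

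Whether MEIS2 rep2 could have called a peak at the members was read from the lists. At the members' local background, scaled to MEIS2 rep2, the weakest listed p of that library would need a median fold of 2.64 (quartiles 2.37 and 3.01), a pile-up of 18 fragments. Since members were chosen by a MEIS2 rep1 peak, their rep1 folds reach the fold needed at their own background by construction. In the 1059 regions of all 5 libraries, which were themselves chosen by a MEIS2 rep2 peak, MEIS2 rep2 had a median fold of 5.92 and MEIS2 rep1 9.25, a median log2 difference of -0.64 (rep2 minus rep1). With the rep1 folds of members scaled down by that amount, 1027 members (26.1%) would fall under the needed fold and 2914 would not. The part of detection in the missing peaks was not tested.

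Most members were far from any MEIS2 rep2 peak, with a median gap of 78399 bp. Within 10 kb there were 592 members (15%) and within 1 kb 74 (1.88%). Just inside the rule, the nearest were a member at HPSE2, 54 bp from a MEIS2 rep2 peak of fold 7.37, one at SRP54 at 84 bp (5.65) and one near MYCN at 92 bp (1.56). Just outside it, left-out regions at ST3GAL4, BOC and CADM1 were touched by MEIS2 rep2 peaks over 10, 11 and 32 bp, with folds of 5.42, 6.23 and 4.14. At BOC the other folds were 16.3 and 14.97 in HAND2 rep1 and rep2, 8.63 in MEIS2 rep1 and 4.28 in TCF4, values within the range of the members.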

How the data were processed

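Peak lists of 5 CUT&Tag libraries were used; the IgG sample is not analysed here. The submitters' processing notes name bcl2fastq 2.17, Bowtie2, MACS3 3.0.0a6 and build hg38, per the labels; the Bowtie2 version and all options are not given there. Each sample has its own peak calls. The deposited fold is a ratio of summit pile-up to local background, and the authors also deposited −log10 p and −log10 q per peak. The deposited score was not used, nor was an extra column in some lists. Peaks outside chromosomes 1 to 22 and X (15 in all) were left out.

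Peaks that shared at least 1 bp were merged, and the rule was applied to the merged regions. Each region took the fold and summit of its strongest peak per library. Whole pile-ups and local backgrounds were recovered from the deposited fold and p within a relative tolerance of 5e-05, for 100% of peaks, and the median pile-up per list was 13 to 60 fragments. No read totals are held by the lists, so library depth is unknown, and folds are not compared between antibodies. Counting intervals on folds are Poisson (exact, 95%) for the pile-up alone. All intervals cover counting error only, since fragments may not be independent molecules.

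Genes are 19970 protein-coding entries of the RefSeq table of GRCh38.p14, the build of the files. It gives no exons or transcripts, so exonic, intronic and UTR positions are not given. Gene starts and their sequence came from the RefSeq promoter table, which was used without chromosome 8. A summit was at a gene end within 1 kb of either end, and a gene was reached where a member overlapped that window.

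The members and lists were chosen with earlier results of these data known. Named were the 12 members with the best worst fold rank, the 12 best at gene ends, the 8 genes with most members (with ties at the last place), the 3 widest members, the highest fold per library, listed genes with a member at an end (at most 4 in lists other than adrenergic, catecholamine and TALE), and the 3 regions nearest the rule's edge on each side. Some items that this rule selects are not reported here. The miRNA search and the comparison within fold quartiles were added after values had been seen. Shares have exact binomial and differences Newcombe 95% intervals; no p-value was computed. Python 3.11.15, pandas 2.3.3, scipy 1.17.1 and statsmodels 0.14.6 were used, and pile-up recovery and the merge were checked on simulated peaks. Alternatives were stricter peaks, equal list lengths, other merging, each replicate left out, other windows and other summits.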

Additional observations from a re-analysis of the deposited data

How the results depend on the processing

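No paired analysis was possible because the results come from no test between groups of samples. The main values were 3941 members, 23.3% at gene ends, a median summit spread of 214 bp, 1474 genes with a member at an end and 15 adrenergic regulators. With a −log10 q of 5 or more, the gene-end share was 19.9% and the spread 190 bp. With the top 9000 peaks of each list there were 1760 members, 13.1% at ends, a spread of 170 bp, 456 genes and 7 adrenergic regulators. Without peaks in the top 1% of local background the share was 21.8%, and with windows of 500 bp and 2000 bp it was 19.0% and 28.4%. Leaving out each replicate in turn gave 4026 to 10791 members, 20.1 to 26.2% at ends, a spread of 141 to 209 bp, 1507 to 3492 genes and 14 to 18 adrenergic regulators. Without HAND2 replicate 1, HAND2 replicate 2 or MEIS2 replicate 1 the spread was 176, 185 and 141 bp. Those values cover fewer summits per region than the 214 bp and tend to be smaller for that alone. The highest counts came without MEIS2 replicate 1, whose absence admits regions with no MEIS2 peak. The differences in gene-end share between members and other classes were recomputed under the same settings, a step added after seeing the data. That from the 5-library regions (7.71 to 17.5 points) and that from HAND2 and MEIS2 rep1 regions (9.90 to 22.9 points) kept their direction, with intervals above 0, under every setting that could be run. That from HAND2 and TCF4 regions with no MEIS2 peak was -0.17 points with the −log10 q of 5 or more, -1.91 with the top 9000 peaks and -0.72 without MEIS2 replicate 2. It was 1.10 points without high background and 1.06 with the 2000 bp window, where the interval included 0. Over the replicates left out it ran from -0.72 to 1.63. The causes were not tested. Of 95 recomputed values, 72 stayed within 1.5 times (counts) or within the 95% interval (shares, spread) of the value reported, or kept their direction with an interval that excluded 0 (differences). The median pile-up per listed peak was 22 and 13 fragments in MEIS2 replicates 1 and 2, against 34 to 60 in the other lists, and limits the precision of MEIS2 folds.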
